A study of Homo sapiens with 18 samples.

Results

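The genes described here are 8 loci active in human pluripotent stem cells, DNMT3B, LIN28B, SALL4, JARID2, PODXL, SOX2-OT, L1TD1 and POU5F1, and the measurement is where the RNA-binding protein QKI was crosslinked along their transcripts. They were chosen by name, as lines of all 12 peak lists that overlap 8 fixed hg19 intervals on the gene's strand, and the rule itself uses no measured value. These intervals held 253 of the 77088 passing peaks and 2370 of the 879442 listed clusters of the series. Every one of the 8 genes had at least 1 passing peak.

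QKI is a STAR-family RNA-binding protein that recognises ACUAA-like motifs and is best known as a regulator of alternative splicing and of RNA stability. Pluripotency rests on a small circuit of transcription factors, which is supported by chromatin regulators, RNA-binding proteins and surface proteins. POU5F1 (also called OCT4) and SALL4 are transcription factors of that circuit, JARID2 recruits Polycomb repressive complex activity, and DNMT3B is a de novo DNA methyltransferase. LIN28B blocks maturation of the let-7 microRNAs, L1TD1 is an RNA-binding protein derived from a retrotransposon, PODXL is a heavily glycosylated cell surface protein, and SOX2-OT is a long noncoding RNA whose locus contains SOX2.

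QKI eCLIP was run in HUES6, an established line of human embryonic stem cells, before differentiation into cardiomyocytes (day 0) and on days 4 and 8, with 3 immunoprecipitated (IP) libraries and 3 inputs each. In eCLIP, ultraviolet light links proteins to RNA in living cells, RNase I trims the RNA, and the fragments that come down with an antibody, here a rabbit anti-QKI antibody, are sequenced. The day 0 cells were undifferentiated and had been plated overnight in growth medium. Day 4 cells, labelled cardiac progenitors, had received CHIR and BMP4 (activators of Wnt and BMP signalling) and then C59 (an inhibitor of Wnt secretion), and day 8 cells, labelled cardiomyocytes, had gone on in C59 and plain medium until beating was seen. All groups came from this 1 cell line, and no label told whether same-day libraries were separate cultures, so p-values measure only the spread between these libraries, which may be technical.

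Each IP library had a list of clusters with the authors' fold over input and p-value. A cluster counted as a passing peak where the authors' log2 fold was 2 or more (4-fold) and their p was 0.001 or less. Each day also had 1 merged list of reproducible peaks. The lists differed in length. Libraries held 12695 to 15508 passing peaks at day 0, 3030 to 7775 at day 4 and 3726 to 10966 at day 8, among 52462 to 187962 clusters, and read depth is unknown. Peak numbers were therefore also given as shares of a library's passing peaks. As a check of the day labels, 6 cardiomyocyte genes (TTN, RYR2, MYH6, MYH7, TNNT2 and ACTN2) were counted. They summed to 28 passing peaks over the day 0 libraries, 82 at day 4 and 477 at day 8. TTN held 0, 73 and 315 of these, and the calcium channel gene RYR2 held 24, 7 and 125. MYH6 had 4, 2 and 14, so the sum rose at day 4 through TTN alone, while MYH7 held none in any library. The hg19 positions of these 6 genes were written by hand and could not be checked. A peak needs both the RNA and the protein on it: fewer cells expressing a gene, less RNA per cell and less QKI on each RNA cannot be told apart here, and no RNA levels were analysed.

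QKI peaks on the pluripotency genes were concentrated at day 0, and JARID2 and DNMT3B carried most of them. Summed over the 8 genes, the day 0 libraries held 62, 55 and 82 passing peaks, the day 4 libraries 11, 15 and 11, and the day 8 libraries 4, 3 and 10. These sums were 0.40%, 0.433% and 0.627% of the passing peaks of the day 0 libraries, 0.363%, 0.193% and 0.275% at day 4, and 0.0633%, 0.0805% and 0.0912% at day 8. Neither the counts nor the shares of any 2 days overlapped. Among all features tested below, 25.2% had every day 0 share above every day 4 share, and 28% above every day 8 share. Every day 4 share lay above every day 8 share in 7.25%. Taken singly, JARID2 and DNMT3B had day 0 above day 4 in every library. LIN28B and PODXL overlapped between these days, and SOX2-OT was lower at day 0. For clusters of any fold the picture differed at day 4. The 8 genes took 0.32%, 0.281% and 0.311% of the clusters at day 0 and 0.406%, 0.297% and 0.294% at day 4, which overlapped, and 0.0991%, 0.114% and 0.114% at day 8, below both.

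The reproducible peaks followed the same order. The merged list of day 0 held 41 peaks in 6 of the 8 genes, 0.527% of its 7778 peaks, that of day 4 held 4 in 2 genes, 0.422% of 947, and that of day 8 held 1, 0.0635% of 1576. JARID2 accounted for 21 of them on day 0 and 1 on each later day, and DNMT3B for 15 on day 0 and none later. SOX2-OT had 1 at day 0 and 3 at day 4. POU5F1 had 2 and LIN28B and PODXL 1 each, all at day 0, and SALL4 and L1TD1 had none at any day. Of the 41 at day 0, 33 met a passing peak in 3 of 3 day 0 libraries. One POU5F1 peak, chr6:31138205-31138259, met a passing peak in 1 day 0 library and in 2 day 4 libraries. One DNMT3B peak, chr20:31393663-31393697, met a passing peak in 1 day 0 library. Of the 41 at day 0, 2 overlapped a reproducible peak of day 4 by at least 1 nt and 1 overlapped that of day 8. The later lists are shorter, and of all 7778 day 0 reproducible peaks 15.4% overlapped one of day 4 and 17.0% one of day 8. With a reciprocal overlap of 50%, 1 of the 41 was matched at day 4 in place of 2, and 1 of the 4 at day 4 was matched at day 0 in place of 4.

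**Figure D1:**
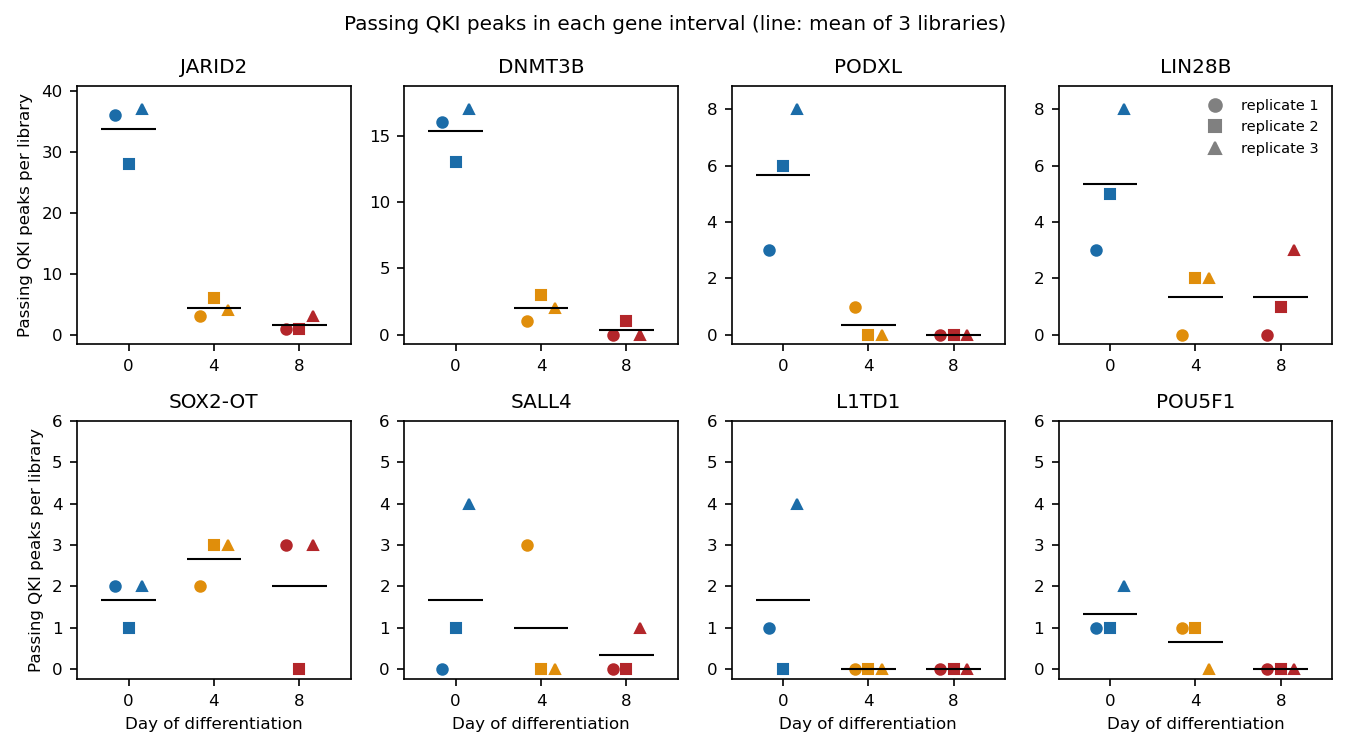
Number of passing QKI peaks per library (vertical axis) in each of the 8 gene intervals at day 0, 4 and 8; each marker is 1 IP library, its shape the replicate number, and the line the mean of 3. JARID2 has 28 to 37 at day 0 and at most 6 later, DNMT3B 13 to 17 and at most 3, and SOX2-OT stays at 3 or fewer throughout; vertical scales differ between genes.

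The 5 genes with at least 10 passing peaks over the 9 libraries, JARID2, DNMT3B, LIN28B, SOX2-OT and PODXL, entered a limma fit over 2068 features of the whole series, the other features being stretches of neighbouring peaks. Values are log2 of the peak number scaled to 10000 passing peaks per library, and p-values are limma's with Benjamini-Hochberg adjustment over all 2068 features. Without day 0, JARID2 would have had 18 passing peaks, SOX2-OT 14, LIN28B 8, DNMT3B 7 and PODXL 1, so the last 3 reached the filter only through their day 0 peaks and a low value later is partly built in. From day 0 to day 8, 3 of the 5 fell and none rose (SOX2-OT was called higher with a constant of 2 and without day 8 replicate 2), against a background of 19.7% of all features lower and 15.2% higher. From day 0 to day 4, 1 fell and 1 rose, with 8.27% of all features lower and 14.2% higher. The constant of 0.5 added to each peak number weighs more in the shorter day 4 lists. It can give a higher call without any peak. ACTN2, as a feature of its own, had 0 passing peaks in every day 0 and day 4 library. It was still called higher at day 4 (1.59, limma adjusted p = 0.0433 over 2062 features). With the constant scaled to each library, 95 of the 2068 features were called higher in place of 294. From day 4 to day 8, 2 fell and none rose, with 4.79% lower and 5.9% higher. Scaling moves this split: of all called features 36.8%, 56.4% and 44.8% were lower in these pairs (days 0 and 4, 0 and 8, 4 and 8), and 94.9%, 85.4% and 13.5% without scaling. The median difference of all features was 0.29 for day 4 against day 0, 0.05 for day 8 against day 0 and -0.48 for day 8 against day 4. With the constant added before the logarithm scaled to each library, these medians became -0.32, -0.30 and -0.07.

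JARID2, the Polycomb cofactor, had the most passing peaks of the 8 genes, though not the most per length. Its interval, chr6:15246206-15522273 on the plus strand (hg19), held 36, 28 and 37 passing peaks in the day 0 libraries, 3, 6 and 4 at day 4 and 1, 1 and 3 at day 8. These were 0.232%, 0.221% and 0.283% of the passing peaks of the day 0 libraries, 0.0990%, 0.0772% and 0.10% at day 4, and 0.0158%, 0.0268% and 0.0274% at day 8. Every day 0 share lay above every day 4 share, and every day 4 share above every day 8 share. Among all tested features, 25.2% were without overlap in that way between days 0 and 4, 28% between days 0 and 8, and 7.25% between days 4 and 8. JARID2 fell by 2.99 ± 0.40 (SE) on the log2 scale from day 0 to day 8 (limma adjusted p = 3.57e-06, n = 3 libraries per day) and differed by -1.72 ± 0.40 between day 8 and day 4 (adjusted p = 0.00571). With raw numbers in place of scaled ones the second call was lost (limma adjusted p = 0.124). The difference of -1.27 ± 0.40 between day 4 and day 0 (adjusted p = 0.0259) was lost in 11 of 23 alternative settings. Its limma adjusted p was 0.441 for clusters of any fold, 0.129 at 8-fold and 0.0795, 0.0799 and 0.117 without day 0 replicate 1, 2 or 3, and it was 0.0631 and 0.0543 without day 4 replicate 2 or 3. As a ratio of pooled shares, day 0 exceeded day 8 by 10.3 times (exact 95% interval 4.26 to 32.4, counting error only) and day 4 by 2.79 times (1.56 to 5.41). These intervals take peaks as independent and leave out the spread between libraries, so they are too narrow and no test. Joined where they touched, the 101 day 0 peaks came down to 81.

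Clusters of any fold in JARID2 numbered 193, 299 and 321 at day 0, 107, 104 and 131 at day 4 and 17, 27 and 25 at day 8. The share of them that passed was 12.4% at day 0 (Wilson 95% interval 10.3 to 14.9, 3 libraries pooled), 3.80% at day 4 (2.23 to 6.39) and 7.25% at day 8 (3.13 to 15.9). Over all clusters of the series the share was 8.78%, 6.36% and 11.9% at these days. The Wilson intervals take clusters as independent, so they are no test against these shares.

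**Figure D2:**
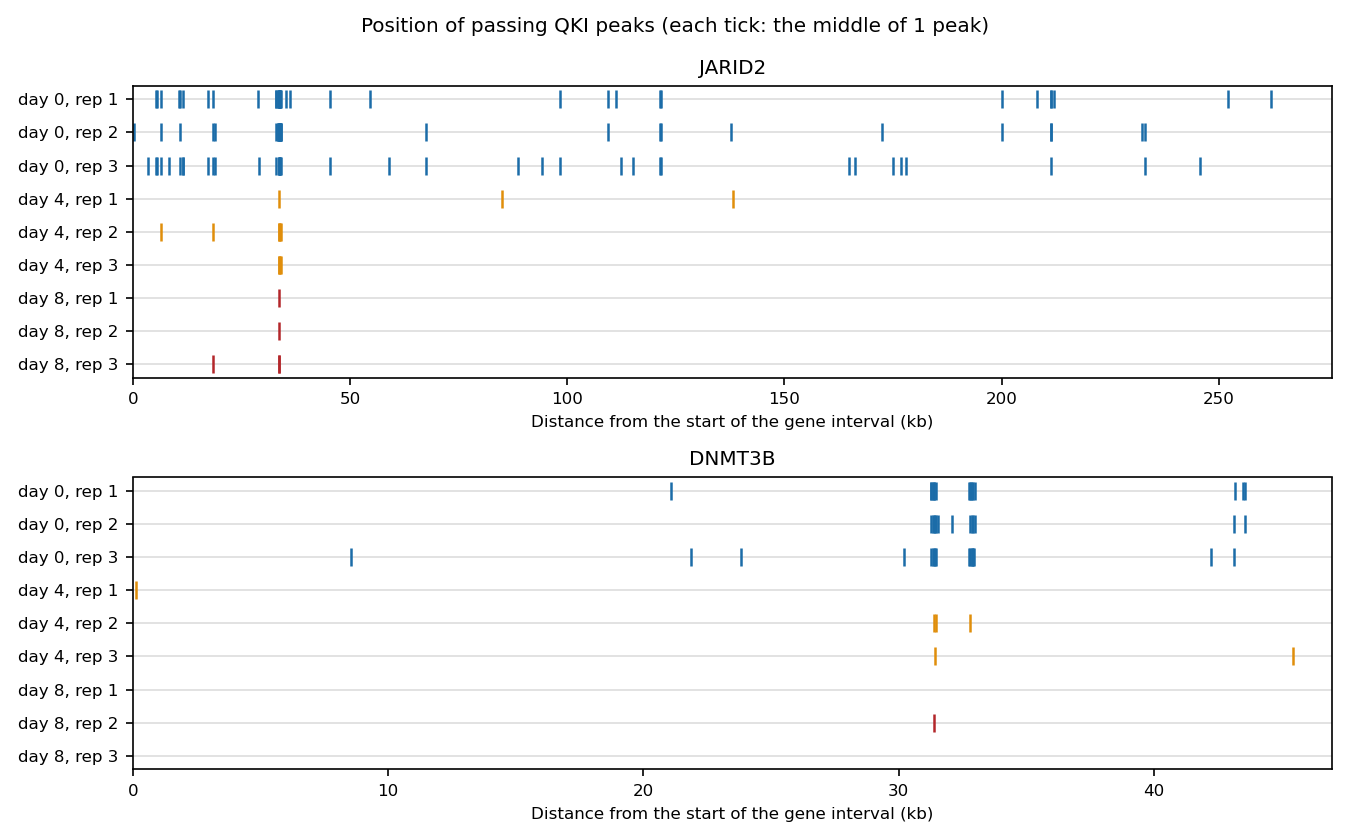
Position of every passing QKI peak along JARID2 and DNMT3B, as distance in kb from the start of the gene interval (horizontal axis), with 1 line of ticks per IP library. Day 0 peaks are spread over JARID2 with a dense group near 33 to 34 kb where all 9 libraries have a peak, and DNMT3B peaks lie mostly between 31 and 33 kb.

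The JARID2 peaks were spread over the whole interval at day 0, and the few later ones lay mostly at 1 place. When passing peaks that touched or overlapped in any library were merged, JARID2 had 51 separate regions, of which 45 passed at day 0 alone and 33 in a single library. Of all 29356 regions of the series, 40.3% passed at day 0 alone, and the share in a single library was not counted. The densest stretch, 1167 nt at chr6:15279163-15280329, began 32.957 kb into the interval of 276.068 kb. It held 43 of the 119 passing peaks (36.1%). The day 0 libraries had 11, 12 and 7 peaks inside it and 25, 16 and 30 outside. Day 4 libraries had 1, 4 and 4 inside and 2, 2 and 0 outside, and day 8 libraries had 1, 1 and 2 inside and 0, 0 and 1 outside. Inside this stretch lay the region chr6:15279657-15280108 of 452 nt, the 1 region of the 8 genes that passed in 9 of 9 libraries. Its strongest peak per library had the authors' log2 folds of 6.48, 5.67 and 6.71 at day 0, 2.89, 6.39 and 4.18 at day 4 and 4.13, 3.72 and 5.08 at day 8. The highest-fold reproducible JARID2 peak of day 0 lay in it, at chr6:15279894-15279971 with a log2 fold of 6.20. The single reproducible peaks of day 4 (log2 fold 4.60) and day 8 (4.31), at chr6:15279776-15279875 and chr6:15279781-15279860, overlapped each other and a day 0 reproducible peak. Folds are the authors' and were scored within each list, so they are not compared between days.

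Other JARID2 positions passed in 3 of 3 day 0 libraries and had no passing peak at day 8. The gene had 9 regions passing in 3 of 3 day 0 libraries. No passing peak was left at day 8 in 7 of them and at day 4 in 5, and no cluster of any fold at day 8 in 3. Over the whole series, these 3 losses met 46.6%, 44.9% and 25.0% of such regions. One of the 7 JARID2 regions was chr6:15257026-15257064, 10.82 kb into the interval, with log2 folds of 2.59, 3.02 and 4.71 in the day 0 libraries. It had no cluster of any fold in a day 8 library and a cluster below the threshold in 1 day 4 library.

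DNMT3B, the de novo DNA methyltransferase, had most of its peaks at day 0, close together. Its interval, chr20:31350191-31397162 on the plus strand, held 16, 13 and 17 passing peaks at day 0, 1, 3 and 2 at day 4 and 0, 1 and 0 at day 8. As a mean of the day 0 libraries this was 3.26 passing peaks per 10 kb, against 2.10 for POU5F1, 1.22 for JARID2, 0.978 for PODXL, 0.951 for L1TD1, 0.902 for SALL4, 0.422 for LIN28B and 0.0197 for SOX2-OT. With touching peaks counted once, DNMT3B had 1.92 per 10 kb and POU5F1 2.10, so their order turns. The shares of the library's passing peaks were 0.103%, 0.102% and 0.130% at day 0, 0.0330%, 0.0386% and 0.050% at day 4, and 0%, 0.0268% and 0% at day 8. As in JARID2, no pair of days overlapped. DNMT3B reached the filter of 10 passing peaks only through day 0, so a low later value is partly built in. It fell by 3.34 ± 0.59 (SE) on the log2 scale from day 0 to day 8 (limma adjusted p = 0.000127). When as many of the strongest peaks were taken from every library as the shortest list holds, this call was lost (-1.46, limma adjusted p = 0.191). It fell by 2.19 ± 0.59 on the log2 scale from day 4 to day 8 (adjusted p = 0.0174), a call lost in 7 of 23 alternative settings, among them without day 4 replicate 3 (adjusted p = 0.0690), day 8 replicate 1 (0.0632) or day 8 replicate 3 (0.0844). The day 4 against day 0 difference of -1.15 ± 0.59 did not pass (adjusted p = 0.157). The pooled share ratio of day 0 over day 8 was 23.4 (exact 95% interval 4.0 to 945), wide because day 8 rests on 1 peak, and that over day 4 was 2.75 (1.17 to 7.88). As in JARID2, these intervals take peaks as independent and leave out the spread between libraries, so they are no test.

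DNMT3B remained listed at day 4. Its clusters of any fold numbered 32, 59 and 63 at day 0, 32, 27 and 30 at day 4 and 0, 5 and 3 at day 8, or 0.0326% ± 0.0011 of a library's clusters at day 0 (SD, n = 3), 0.0397% ± 0.0103 at day 4 and 0.00431% ± 0.00410 at day 8. On that scale day 4 was not below day 0 (log2 difference 0.27, limma adjusted p = 0.774). Of the clusters, 29.9% passed at day 0 (Wilson 95% interval 23.2 to 37.5), 6.74% at day 4 (3.13 to 13.9) and 1 of 8 at day 8. Over all clusters of the series the share was 8.78% at day 0 and 6.36% at day 4. The intervals take clusters as independent, although adjacent ones can belong to 1 footprint, so they are no test against these shares.

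The DNMT3B peaks formed a compact group. A stretch of 1787 nt at chr20:31381415-31383201, starting 31.224 kb into the interval, held 39 of the 53 passing peaks (73.6%). That count includes adjacent clusters of 1 footprint: joined where they touched, the passing peaks came down from 16, 13 and 17 to 7, 8 and 12 separate footprints at day 0. The region bound in most libraries was chr20:31381494-31381736, 243 nt, with the authors' log2 folds of 5.53, 5.44 and 4.34 for its strongest peak at day 0. It passed in day 4 replicates 2 and 3 (5.0 and 3.30) and day 8 replicate 2 (2.88). The highest-fold reproducible DNMT3B peak, chr20:31381605-31381704 with a log2 fold of 5.31, lay within it. Just upstream, chr20:31381415-31381482 passed in 3 of 3 day 0 libraries (log2 folds 4.59, 4.66 and 4.60) and had no cluster of any fold at day 4 or day 8.

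**Figure D3:**
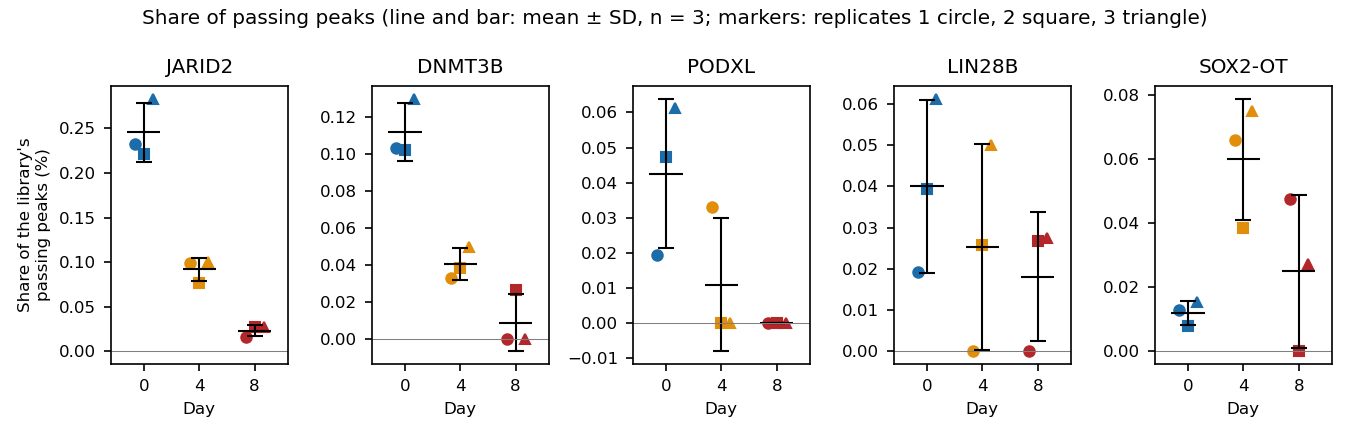
Share of each library's passing peaks (vertical axis, percent) that lie in the 5 tested genes at day 0, 4 and 8; markers are IP libraries and the line and bar are the mean ± SD of 3. JARID2 and DNMT3B step down at each day without overlap, PODXL is at 0% in all day 8 libraries, LIN28B overlaps between all days, and SOX2-OT is higher at day 4 than at day 0.

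PODXL, the surface sialomucin, had 3, 6 and 8 passing peaks at day 0, 1, 0 and 0 at day 4 and none at day 8, in chr7:131185021-131242976 on the minus strand. Day 0 lay above day 8 in every library. Like DNMT3B, PODXL reached the filter only through day 0, so a low later value is partly built in. It fell by 2.43 ± 0.68 (SE) on the log2 scale from day 0 to day 8 (limma adjusted p = 0.00821), a value that depends on the constant added to 0 peaks. Counted against an assumed floor of 3 peaks over the day 8 libraries, the pooled share was 2.88-fold lower. This value takes the 17 day 0 peaks as exact and is no 95% limit. The call was lost in 5 of 22 alternative settings, among them 8-fold (limma adjusted p = 0.170), covered nucleotides (0.0502), a constant of 2 (0.208) and for clusters of any fold, where the difference was -0.12 (0.786). PODXL clusters numbered 31, 39 and 60 at day 0, 44, 17 and 39 at day 4 and 14, 17 and 13 at day 8. At day 8, 0 of these 44 passed, which allows up to 8.03% (Wilson 95% upper bound). Only 1 PODXL region, chr7:131213925-131213993, passed in 3 of 3 day 0 libraries (log2 folds 3.52, 3.12 and 2.87), and no cluster of any fold lay there at day 4 or day 8. It holds the gene's single reproducible peak (log2 fold 3.27).

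LIN28B, the let-7 antagonist, had 2 regions with a passing peak at each of the 3 days. Its interval, chr6:105404922-105531207 on the plus strand, held 3, 5 and 8 passing peaks at day 0, 0, 2 and 2 at day 4 and 0, 1 and 3 at day 8. The shares overlapped between all pairs of days. The log2 differences were -0.31 ± 0.62 (SE) for day 4 against day 0 and -0.88 ± 0.62 for day 8 against day 0, and neither passed (limma adjusted p = 0.743 and 0.294). The pooled share ratio of day 0 over day 8 was 2.04 (exact 95% interval 0.657 to 8.37), too wide to tell an equal share from one several times lower. One of them, 106 nt at chr6:105429278-105429383, passed in 7 of 9 libraries. Its strongest peak had log2 folds of 5.32, 5.70 and 6.25 at day 0, 4.31 and 4.76 in day 4 replicates 2 and 3, and 4.36 and 3.69 in day 8 replicates 2 and 3. The gene's 1 reproducible peak, with a log2 fold of 5.78 at day 0, was at this position. The other, chr6:105423200-105423326, passed in 1 library at day 0, 2 at day 4 and 1 at day 8.

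In SOX2-OT, the long noncoding RNA, a single position held every passing peak. The interval, chr3:180707558-181554668 on the plus strand, spans 847.111 kb, and all 19 passing peaks lay in 111 nt at chr3:180949522-180949632. There were 2, 1 and 2 at day 0, 2, 3 and 3 at day 4 and 3, 0 and 3 at day 8. The authors' log2 folds of the strongest were 3.64, 3.16 and 5.12 at day 0, 6.02, 9.64 and 6.19 at day 4, and 7.50 and 6.64 in day 8 replicates 1 and 3. Day 8 replicate 2 had a cluster there that did not pass. The scaled number was higher at day 4 than at day 0 by 2.16 ± 0.54 (SE) on the log2 scale (limma adjusted p = 0.00797), with no overlap of shares (15.3% of all features were below day 4 in this way). That call was lost in 6 of 22 alternative settings. Without scaling, the difference was 0.57 (adjusted p = 0.542). With covered nucleotides in place of peak numbers the adjusted p was 0.0532, and with the constant scaled to the library it was 0.119. Counted as touching footprints, each of the 8 libraries with a passing peak had exactly 1. The 3 reproducible peaks of day 4, the strongest at chr3:180949523-180949534 with a log2 fold of 7.28, all overlapped the single one of day 0 (log2 fold 3.63). SOX2 is placed inside the interval and away from these 111 nt, by a position that could not be checked, and held no passing peak.

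**Figure D4:**
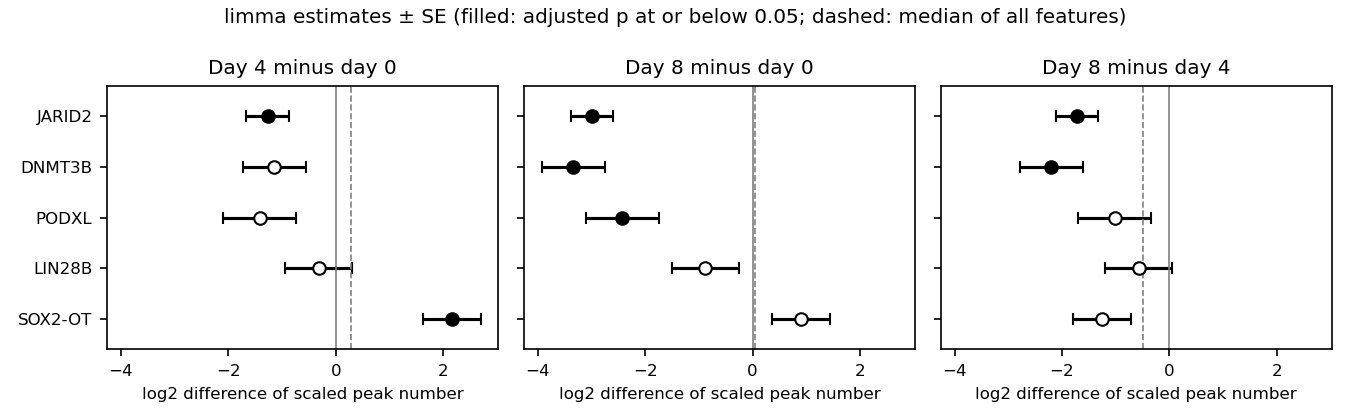
limma estimates ± SE of the log2 difference in scaled peak number (horizontal axis) for the 5 tested genes in the 3 pairs of days; filled points have an adjusted p at or below 0.05 and the dashed line is the median of all 2068 features. Between day 8 and day 0, DNMT3B, JARID2 and PODXL lie at -3.34, -2.99 and -2.43, and LIN28B and SOX2-OT are not called.

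The 3 remaining genes missed the filter of 10 passing peaks. With no filter none of their differences passed, at limma adjusted p of 0.183 to 0.994 over 10749 features, and the exact permutation p over the 3 days was 0.893 for SALL4, 0.25 for L1TD1 and 0.221 for POU5F1. At so few peaks the constant outweighs the counts, so the fit does not show that these genes were unchanged. For day 4 against day 0 it gave 0.005 for L1TD1, 0.94 for SALL4 and 0.82 for POU5F1, though each had fewer passing peaks at day 4. POU5F1, the core transcription factor, had 1, 1 and 2 passing peaks at day 0, 1, 1 and 0 at day 4 and none at day 8, in chr6:31132114-31138451 on the minus strand. All 6 lay within 278 nt that begin 54 nt from the transcribed start of the interval. One region there, chr6:31138283-31138397, passed in 3 of 3 day 0 libraries (log2 folds 2.14, 3.21 and 3.44). It had no cluster at day 8 and an unpassed one in 1 day 4 library. POU5F1 was still listed at day 4 with 7, 1 and 9 clusters, after 9, 8 and 11 at day 0, and had 1, 0 and 0 at day 8. Because POU5F1 has closely similar pseudogene copies and the handling of reads that match several places was not given in the sources used here, its counts are uncertain.

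SALL4, the zinc finger factor, had passing peaks in 4 libraries: 1 and 4 in day 0 replicates 2 and 3, 3 in day 4 replicate 1 and 1 in day 8 replicate 3, in chr20:50400581-50419048 on the minus strand. Its clusters of any fold numbered 12, 19 and 20 at day 0, 22, 19 and 24 at day 4 and 5, 12 and 5 at day 8, so days 0 and 4 overlapped. The SALL4 region bound in most libraries, chr20:50417470-50417517, passed in 2 day 0 libraries and 1 day 4 library. L1TD1, at chr1:62660474-62678001 on the plus strand, passed only at day 0, with 1, 0 and 4 peaks. Its clusters numbered 14, 24 and 40 at day 0, 21, 15 and 16 at day 4 and 2, 2 and 3 at day 8. Its most shared region, chr1:62669262-62669303, passed in day 0 replicates 1 and 3 with log2 folds of 2.22 and 3.61.

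Across the 8 genes the passing peaks merged into 100 regions, of which 80 passed at day 0 alone and 59 in 1 library. Over the whole series, 40.3% of 29356 such regions passed at day 0 alone, and the share in 1 library was not counted. Passing in 3 of 3 libraries was met by 17 regions at day 0, 2 at day 4 and 1 at day 8. Among the day 0 regions, 9 had no passing peak at day 4 and 6 of those no cluster of any fold. At day 8, 12 had no passing peak and 8 no cluster. In percent, these 4 losses were 52.9%, 35.3%, 70.6% and 47.1% of the 17, beside 44.9%, 20.5%, 46.6% and 25.0% of the 5954 regions of the whole series that passed in 3 of 3 day 0 libraries. The 17 lay in JARID2 (9), DNMT3B (4), LIN28B, PODXL, SOX2-OT and POU5F1 (1 each).

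Each gene's own shares were also tested by exact permutation, with all 280 ways to divide the 9 libraries into 3 days. The exact p was 0.00357 for JARID2 and for DNMT3B, the smallest value possible, 0.0714 for PODXL, 0.0536 for SOX2-OT and 0.457 for LIN28B. Adjusted over the 2068 features these were 0.0935, 0.0935, 0.174, 0.145 and 0.603. DNMT3B, PODXL and LIN28B had reached the filter only through day 0, which builds in part of such a difference. By this exact test 0 of 2068 features reached an adjusted p of 0.05, while 35.9% were at or under an unadjusted 0.05 and limma called 721 for day 8 against day 0. Pairs of days cannot give less than an exact p of 0.1 with 3 against 3 libraries.

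A further 20 pluripotency genes were counted in the same way, from intervals written by hand, whose chromosome matched RefSeq in 20 of 20 and length within 5% in 15, but whose hg19 positions could not be checked. Of these genes, 16 had a cluster of any fold and 8 a passing peak in at least 2 libraries: LIN28A, TDGF1, DPPA4, TET1, CDH1, MYCN, FGF2 and CD9. Their passing peaks over all 20 genes summed to 66 at day 0, 25 at day 4 and 16 at day 8. As shares they came to 0.142%, 0.142% and 0.199% of the passing peaks of the day 0 libraries, to 0.330%, 0.116% and 0.150% at day 4, which overlapped, and to 0.0949%, 0.0805% and 0.0638% at day 8, below both. As features of their own in the fit, 4 reached the filter. From day 0 to day 8, 1 of the 4 fell and none rose, beside 19.5% of all features lower and 14.9% higher, and none of the 4 was called for day 4 against day 0 (8.29% of all features lower, 14.1% higher) or day 8 against day 4 (4.7% and 5.63%). That gene was FGF2, the growth factor that sustains human pluripotent cells, with 5, 6 and 9 passing peaks at day 0, 1, 0 and 0 at day 4 and none at day 8 (log2 difference -2.70 ± 0.66, limma adjusted p = 0.00314 over 2062 features, a size that depends on the constant added to 0 peaks). FGF2 had only 1 passing peak outside day 0 and so reached the filter through day 0, which builds in a low value later. LIN28A, the paralogue of LIN28B, had 1, 1 and 3, then 4, 2 and 0, then 2, 1 and 1, and was not called in any pair. TET1, which oxidises methylated DNA, had 3, 3 and 2, then 0, 6 and 1, then 2, 0 and 4, and was not called either. CDH1, the epithelial cadherin, had 4, 7 and 6 at day 0, 3, 0 and 3 at day 4 and 1, 2 and 1 at day 8, and its difference of -0.66 ± 0.77 between day 8 and day 0 did not pass (adjusted p = 0.545). TDGF1 passed only at day 0, with 3, 1 and 2 peaks, and was not tested.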

How the data were processed

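The deposited peak lists of 9 QKI IP libraries and 3 merged lists were used. Each line holds the authors' enrichment over input as a log2 value and its −log10 p-value (at most 400), input-normalized on hg19, per the file headers. The merged lists hold peaks at 4-fold that passed a 3-way IDR comparison, per the file headers. STAR, cutadapt and SAMtools are named in the submitters' processing notes. The peak caller was not given in the sources used here, inputs were not analysed here, and read depth is unknown.

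Groups came from the sample titles. Features were the 8 gene intervals and all other passing peaks joined within 20 kb on the same strand (10749), of which 2068 had at least 10 passing peaks over the 9 libraries. Per feature and library, log2((peaks + 0.5) / (library passing peaks + 1) × 10000) was fitted with limma 3.58.1 (R 4.3.3; lmFit, eBayes with a variance trend) on all 9 libraries, with Benjamini-Hochberg adjustment at 0.05. Tested on simulated data (5 runs, 200 of 2068 features changed, day 8 against day 0), changes of 4-fold, 8-fold and 16-fold were called in 27.1%, 74.7% and 87.6% of features with 30 or more expected day 0 peaks, and in 5.21%, 24.4% and 41.7% of those with 15 to 30. As a mean of the 5 runs, the fit called at most 0.300% of unchanged features. Comparisons with day 4 were not simulated, so the rate does not cover them. The simulated counts were independent negative binomial draws with a single assumed spread and no splitting of footprints into adjacent clusters. These rates therefore need not hold for the measured lists. Exact tests used SciPy 1.17.1. Intervals are 95% and cover counting error only. They pool the 3 libraries of a day and take peaks or clusters as independent, although adjacent ones can belong to 1 footprint.

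The rule for the genes uses no measured value, but the genes, lists and tests were chosen with earlier results of these data known. Named within each gene were the highest-fold reproducible peak of each day, the region passing in most libraries, and the strongest region passing in 3 of 3 libraries of a day with no cluster in another. Of the 20 further pluripotency genes, those with a passing peak in 2 or more libraries were named. Alternatives changed the threshold, scaling, constant, joining distance, filter, replicate block and libraries. No annotation of hg19 was used, so exons and introns were not assigned.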

Additional observations from a re-analysis of the deposited data

Results flagged for a closer look

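The strand opposite SOX2-OT carried a QKI position that was counted for none of the 8 genes, and only among the other features of the series. Within the SOX2-OT interval but on the minus strand, 17 passing peaks were found over the 9 libraries, all of them in 60 nt at chr3:181540719-181540778 (hg19), 833.161 kb from the start of the interval. The day 0 libraries had 1, 2 and 3 of them, the day 4 libraries 1, 2 and 2, and the day 8 libraries 2 each. The position was thus passing in 9 of 9 libraries, and the merged list of each day had 2 reproducible peaks there. The authors' log2 folds of the strongest peak per library ran from 2.12 in day 0 replicate 1 to 5.79 in day 4 replicate 2. The other 7 genes had 0 passing peaks on their opposite strand.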

How the results depend on the processing

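The number of the 8 genes called depended most on the setting for day 4 against day 0. The 1 lower call became 0 at 8-fold, for clusters of any fold, with equal numbers of peaks per library, with covered nucleotides, centred on the median feature and without a variance trend. It became 3 without scaling, and 2 with loci of reproducible peaks or no filter, and ran from 0 to 2 when single libraries were left out. The 1 higher call became 0 for clusters of any fold, equal numbers, covered nucleotides, no scaling, centring, at least 20 peaks (where SOX2-OT and PODXL leave the table) and the constant scaled to the library, an alternative added after the data were seen. For day 8 against day 0, the 3 lower calls became 1 with equal numbers of peaks and 2 with a constant of 2, at 8-fold, for clusters of any fold, with covered nucleotides and with at least 20 peaks. SOX2-OT was called higher in 2 settings, with a constant of 2 (1.13, limma adjusted p = 0.0315) and without day 8 replicate 2 (1.45, 0.0341). For day 8 against day 4, the 2 lower calls became 1 with a constant of 2 or one scaled to the library, 0 with equal numbers or no scaling, and 1 to 2 with single libraries left out. At 8-fold, 8 regions passed in 3 of 3 day 0 libraries in place of 17.

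No reversed sign belonged to a called difference. For day 4 against day 0, DNMT3B was 0.27 for clusters of any fold and 0.12 with equal numbers, and PODXL 0.56 and 0.53. LIN28B was 0.44 with a constant of 2 and ran from -0.79 to 0.17 with single libraries left out (0.04 without day 0 replicate 3). Its day 8 against day 4 difference ran from -1.05 to 0.16. SOX2-OT for day 8 against day 0 was -0.20 without scaling. The causes were not tested. JARID2 for day 8 against day 0 was called in 23 of 23 alternatives (-4.09 to -1.44), and DNMT3B in 22.

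Over all features, 465 were called for day 4 against day 0, 36.8% of them lower. This became 894 with a constant of 2 (2.57% lower), 190 with equal numbers (67.9%), 820 without scaling (94.9%), 204 with centring, 4461 of 10749 without a filter (5.42%), 188 of 787 with at least 20 peaks and 422 with the scaled constant (77.5%). It was 247, 238 and 280 without day 0 replicate 1, 2 or 3, and 262 without day 4 replicate 3. For clusters of any fold 59.7% were lower. For day 8 against day 0, 721 became 366 with equal numbers, 445 of 1214 with loci of reproducible peaks, 3157 without a filter and 287 with at least 20 peaks. The lower share of 56.4% became 14.6% with a constant of 2, 85.4% without scaling and 69.5% with the scaled constant, and 38.7% for clusters of any fold. For day 8 against day 4, 221 became 57, 119 and 125 with a constant of 2, equal numbers and centring, 148 without scaling, 131 with at least 20 peaks and 146 without day 4 replicate 3. Its lower share of 44.8% became 25.2% with equal numbers, 13.5% without scaling, 28.6% with the scaled constant and 31.3% for clusters of any fold. With the replicate block, 461, 721 and 227 features were called, and no count over the 8 genes changed. Deviations of same-numbered libraries correlated by -0.15 to 0.31, so the numbers do not pair them.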
